A study of Mus musculus with 6 samples.

Results

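Bipolar cell and ON-pathway genes were followed in bulk RNA-seq of mouse retinae at postnatal day 21. The 9 genes Grm6, Nyx, Lrit3, Gpr179, Trpm1, Prkca, Pcp2, Cabp5 and Isl1 were taken by name from a table of 24062 genes, and all 9 were among the 16904 genes tested. The comparison was between 3 retinae of Rb1/p107/Hells triple knockout (TKO) mice and 3 retinae of Rb1/p107 double knockout (DKO) mice, all C57BL/6 in the labels (C57BL/6N in the study's methods). Both genotypes carried Chx10-Cre, floxed Rb1 alleles and a germline deletion of p107, and TKO mice carried floxed Hells alleles in addition. This Cre is active in retinal progenitor cells and acts in a mosaic, so every retina also held cells that did not recombine. The study compared these genotypes to ask how loss of the chromatin remodeler HELLS changes the retina before tumors appear. No wild-type or Cre-negative retina was analysed here, so the values have no normal reference.

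Bipolar cells carry the signal of rods and cones to the inner retina. In ON bipolar cells, glutamate from photoreceptors acts on the metabotropic receptor mGluR6, which works through a Go protein to keep the cation channel TRPM1 closed. Light lowers glutamate, the G protein is switched off by RGS proteins, and the channel opens. Rod bipolar cells are the ON cells of the rod pathway and are recognised by PKC alpha, while OFF bipolar cells use ionotropic glutamate receptors. Loss of the genes for mGluR6, nyctalopin, LRIT3, GPR179 or TRPM1 is known to cause congenital stationary night blindness.

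The libraries held from 10343907 to 14203098 counts, with a median of 12083082 in TKO and 13455972 in DKO retinae. Values below are normalized counts, in which TMM factors put the libraries on a common size, and tests are edgeR's quasi-likelihood test with Benjamini-Hochberg adjustment over all genes tested. The 3 values of a genotype are listed by replicate number throughout. Hells, the targeted gene, had normalized counts of 60.8, 68.4 and 83.4 (TKO) and 678, 523 and 395 (DKO), so each library followed its label. No pair of replicates was as alike as 1 library counted again would be, with chi-square values per degree of freedom between 8.19 and 23.4. The labels do not say that the retinae came from separate animals, and the p-values measure the spread between these samples. In bulk RNA, fewer cells of a type and less RNA per cell cannot be told apart.

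Of the 9 genes, 3 rose in TKO retinae (Lrit3, Nyx and Cabp5) and 6 did not pass the test (Grm6, Gpr179, Pcp2, Trpm1, Prkca and Isl1). None fell, and an unadjusted p of at most 0.05 and DESeq2 each gave the number 3 as well, all higher. The adjusted p of at most 0.05 that marks a rise was reached with a higher level by 7.35% of all genes tested and with a lower level by 9.2%. With the study's 3 criteria, which also ask for a change of 1 or more on the log2 scale and for 10 normalized counts on average, Lrit3 alone was called, against 1.97% of genes called higher and 4.4% called lower. The same 3 genes were those in which every TKO retina lay above every DKO retina, which held for 18.0% of all genes. The fitted log2 fold changes ran from 0.031 (Isl1) to 1.18 (Lrit3) with a median of 0.36, beside a median of -0.011 over all genes. The values for Prkca, Trpm1 and Isl1 were below 0 when libraries were scaled by total counts alone, a scaling that moves the median of all genes to -0.17, and Isl1 also with upper-quartile scaling. Over all genes, scaling by total counts alone gave 778 higher and 2610 lower genes at the same adjusted p, against 1243 and 1556 with TMM.

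**Figure D1:**
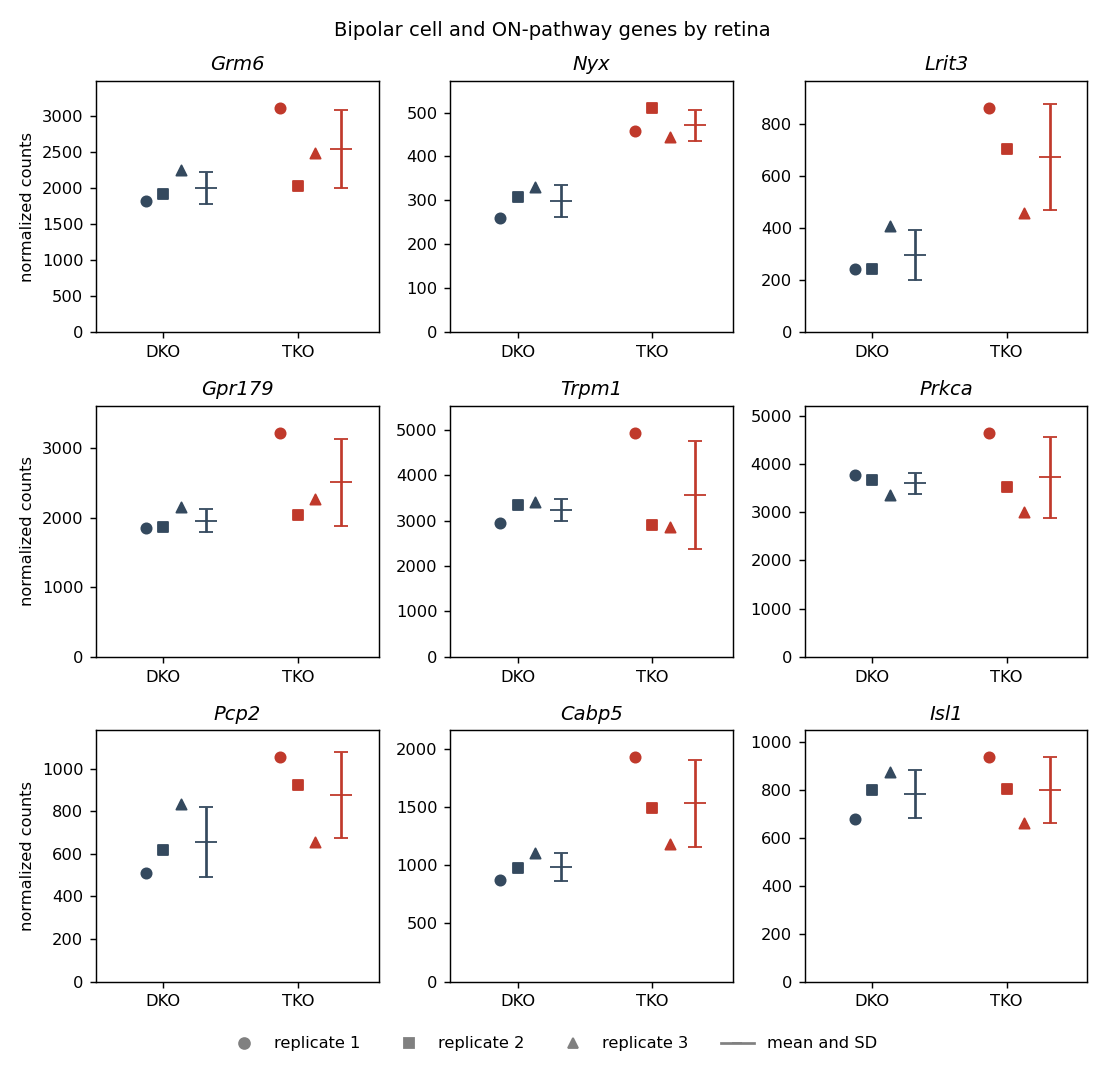
Normalized counts (vertical axes, starting at 0) of the 9 genes in the 3 DKO and 3 TKO retinae, with the replicate given by the point shape and the mean and SD beside the points. The groups do not overlap for Nyx, Lrit3 and Cabp5, and TKO replicate 1 is the highest of the 6 retinae for 8 of the 9 genes.

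The windows before the start sites of 4 of these genes are shown because they hold, or lack, a short homeobox motif. TAATCC, read on both strands (GGATTA on the other), is the core bound by OTX2 and CRX, factors of photoreceptors and, for OTX2, also of bipolar cells. In RefSeq promoters of GRCm38.p6 it lay within 250 bases before the start in 6.25% of 32817 windows of that length. All 9 genes had a window there, with 13 windows in all. The motif was found for 3 of the 9 genes (Trpm1, Cabp5 and Isl1), in 3 of the 13 windows. Cabp5 held it at 41 and 160 bases before the start, Trpm1 at 34 and Isl1 at 177, while the windows of Lrit3 and Nyx held none. The palindromic core TAATTA of other homeobox factors was found for Pcp2 only, in 1 of its 4 windows (4.85% of all windows). The RefSeq start of that window lies 263 bases downstream of the GENCODE start, so the match is inside the annotated gene. The E2F sites TTTCCCGC and TTTGGCGC were found for 0 of the 9 genes (1.30% of all windows). A match is a description of the letters and not a site in use, and a window without one says nothing about the factor. Positions count from the first base of the motif to the start. The windows lie before the RefSeq starts, and for 3 of the 4 genes shown these are not the GENCODE starts used for the gene coordinates. The RefSeq start lies 5020 bases upstream of the GENCODE start for Nyx and 106 bases upstream for Lrit3, while for Cabp5 it lies 23 bases downstream and for the Trpm1 start shown both are the same. Another RefSeq start of Trpm1 lies further downstream, and its window, which is not shown, held no TAATCC. Each window is given 5′ to 3′ on the strand of the gene, cut where an annotated exon begins, with TAATCC or GGATTA in capitals. They lie at chr7:13397905-13398131 (Cabp5, plus strand), chr7:64153585-64153834 (Trpm1, plus strand), chr3:129804137-129804386 (Lrit3, minus strand) and chrX:13460840-13461089 (Nyx, plus strand).
Cabp5: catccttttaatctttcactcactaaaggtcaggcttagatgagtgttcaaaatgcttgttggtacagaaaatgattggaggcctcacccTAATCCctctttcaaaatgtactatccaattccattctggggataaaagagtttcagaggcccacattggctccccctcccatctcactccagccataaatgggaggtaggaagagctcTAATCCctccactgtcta
Trpm1: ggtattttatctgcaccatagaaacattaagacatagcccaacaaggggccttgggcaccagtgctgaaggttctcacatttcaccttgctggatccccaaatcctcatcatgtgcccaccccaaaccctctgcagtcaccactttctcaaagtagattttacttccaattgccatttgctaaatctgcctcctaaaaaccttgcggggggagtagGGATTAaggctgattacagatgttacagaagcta
Lrit3: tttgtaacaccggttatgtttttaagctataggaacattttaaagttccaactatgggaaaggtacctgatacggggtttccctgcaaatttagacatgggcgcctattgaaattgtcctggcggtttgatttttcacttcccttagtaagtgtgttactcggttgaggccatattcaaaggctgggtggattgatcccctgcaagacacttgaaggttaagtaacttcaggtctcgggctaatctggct
Nyx: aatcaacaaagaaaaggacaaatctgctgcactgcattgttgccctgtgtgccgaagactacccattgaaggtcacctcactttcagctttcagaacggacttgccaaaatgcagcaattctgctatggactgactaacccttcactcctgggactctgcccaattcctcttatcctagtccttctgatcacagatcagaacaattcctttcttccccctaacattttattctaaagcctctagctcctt

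Grm6 encodes mGluR6, the glutamate receptor at the dendritic tips of ON bipolar cells. The gene lies on chromosome 11 of GRCm38 from 50850685 to 50866208. The TKO retinae held 3117, 2027 and 2492 normalized counts, and the DKO retinae 1830, 1919 and 2260. The groups overlapped, because TKO replicate 2 lay below DKO replicate 3. Its fitted log2 fold change of 0.35 did not pass (95% interval -0.011 to 0.70, adjusted p = 0.162 from edgeR). An antisense gene, Gm12660, shares 599 exonic bases with Grm6. The library kit was a stranded one, but the sources used here do not state the strand setting of the counting.

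Nyx encodes nyctalopin, a leucine-rich repeat protein of the ON dendrite that is needed to place TRPM1. It lies on chromosome X from 13466110 to 13489313. Normalized counts were 459, 510 and 444 in TKO against 260, 307 and 331 in DKO. Every TKO retina was above every DKO retina, and the spread within each genotype was small beside the gap. Means were 471 ± 34.8 for TKO and 299 ± 36.1 for DKO (SD, n = 3 each), which edgeR fitted as 0.65 on the log2 scale (standard error 0.120, 95% interval 0.38 to 0.93, adjusted p = 0.0117 from edgeR). Without TKO replicate 2 the adjusted p was 0.0590 and without DKO replicate 2 it was 0.0511, with log2 fold changes of 0.59 and 0.67.

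Lrit3 encodes another leucine-rich repeat protein of the same synapse, which is needed for nyctalopin and TRPM1 to gather at the dendrite and has been placed in photoreceptor terminals as well. The gene lies on chromosome 3 from 129787881 to 129804030. In TKO retinae it reached 860, 702 and 457 normalized counts, where DKO retinae gave 241, 242 and 407. The groups did not overlap, but TKO replicate 3 and DKO replicate 3 lay close together. The TKO mean was 673 ± 203 and the DKO mean 296 ± 95.5 (SD, n = 3 each), a difference of 1.18 on the log2 scale (standard error 0.270, 95% interval 0.56 to 1.80, adjusted p = 0.0225 from edgeR), or 2.27-fold. Its adjusted p rose to 0.0693 and 0.0805 when TKO replicate 1 or 2 was left out and to 0.0874 and 0.0910 when DKO replicate 1 or 2 was, where the log2 fold change was between 0.97 and 1.15. Rod genes moved with it. All 8 rod markers on the rod list rose, none was at 0, and the sum of 7 of them ran from 15550.4 to 30711 CPM (counts scaled to a fixed, TMM-adjusted library size) in TKO and from 5252 to 9767 in DKO retinae. From the highest, the rod sum followed TKO replicates 1, 2 and 3 and then DKO replicate 3, as did Lrit3 and also Cabp5. The lowest places differed. DKO replicate 1 lay above DKO replicate 2 in the rod sum (5483 and 5252 CPM) but not for Lrit3 or Cabp5. Gabrr1 and Scgn, markers of rod bipolar and ON cone bipolar cells, had the same order as Lrit3, so the shared part is not particular to rod genes. The share of all genes with this order was not counted. The part of rod RNA in the Lrit3 difference was not tested.

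Gpr179 encodes an orphan receptor that holds the RGS proteins near mGluR6. Its normalized counts were 3224, 2044 and 2265 (TKO) and 1857, 1871 and 2149 (DKO). TKO replicate 2 lay below DKO replicate 3, so the groups overlapped. A log2 fold change of 0.36 was fitted (95% interval -0.015 to 0.73, adjusted p = 0.165 from edgeR). Trpm1 encodes the cation channel at the end of the cascade. TKO retinae gave 4939, 2899 and 2862 normalized counts, with 2952, 3341 and 3420 in DKO. A single retina, TKO replicate 1, was high, and the other two TKO retinae were below all DKO retinae. The fit gave 0.14 on the log2 scale (95% interval -0.33 to 0.60, adjusted p = 0.673 from edgeR), and -0.17 without TKO replicate 1.

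Prkca encodes PKC alpha, the usual marker of rod bipolar cells. The normalized counts were 4648, 3511 and 3007 in the TKO group, and 3763, 3667 and 3352 in the DKO group. The TKO values lay on both sides of the DKO values. The log2 fold change was 0.051 (95% interval -0.30 to 0.40, adjusted p = 0.846 from edgeR), and -0.14 without TKO replicate 1. Pcp2 encodes a regulator of Gi and Go proteins that is found in rod bipolar and other ON bipolar cells. There were 1054, 923 and 655 normalized counts in TKO and 511, 620 and 833 in DKO. DKO replicate 3 lay above TKO replicate 3. The fitted log2 fold change was 0.42 (95% interval -0.061 to 0.91, adjusted p = 0.200 from edgeR). Pcp2 shares 941 exonic bases with Pet100 on the opposite strand, so some of its counts may belong to that gene.

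Cabp5 encodes a calcium-binding protein of rod bipolar cells and some cone bipolar cells. The gene lies on chromosome 7 from 13398132 to 13408887. The gene had 1925, 1491 and 1182 normalized counts in TKO retinae, beside 869, 978 and 1105 in DKO. The groups did not overlap, with TKO replicate 3 close above DKO replicate 3. From the highest, its order of retinae (TKO replicates 1, 2 and 3, then DKO replicate 3) was also that of the rod sum and of the bipolar markers Gabrr1 and Scgn. DKO replicates 1 and 2 stood the other way round in the rod sum. The part of rod RNA in the Cabp5 difference was not tested. On average TKO retinae had 1533 ± 374 and DKO retinae 984 ± 118 (SD, n = 3 each), and the fitted log2 difference was 0.64 (standard error 0.171, 95% interval 0.25 to 1.03, adjusted p = 0.0384 from edgeR). That adjusted p became 0.0960 and 0.102 when TKO replicate 1 or 2 was left out, 0.126 and 0.119 when DKO replicate 1 or 2 was, and 0.0543 with total counts alone. The log2 fold change was 0.44 without TKO replicate 1 and 0.80 without TKO replicate 3.

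Isl1 encodes a LIM homeobox factor of ON bipolar cells that starburst amacrine cells and ganglion cells also use. Normalized counts of 936, 805 and 660 (TKO) stood against 677, 798 and 876 (DKO). The TKO values spanned the DKO range on both sides. On the log2 scale the difference was 0.031 (95% interval -0.30 to 0.36, adjusted p = 0.901 from edgeR). The 7 amacrine markers and 6 ganglion cell markers, of which none passed the test, had medians of 0.068 and 0.18. Among them the starburst markers Chat and Slc18a3, chosen after their values were seen, had log2 fold changes of 0.75 and 0.44 (adjusted p = 0.0850 and 0.291 from edgeR, unadjusted p = 0.0198 and 0.141), with TKO replicate 3 below DKO replicate 3 for both.

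**Figure D2:**
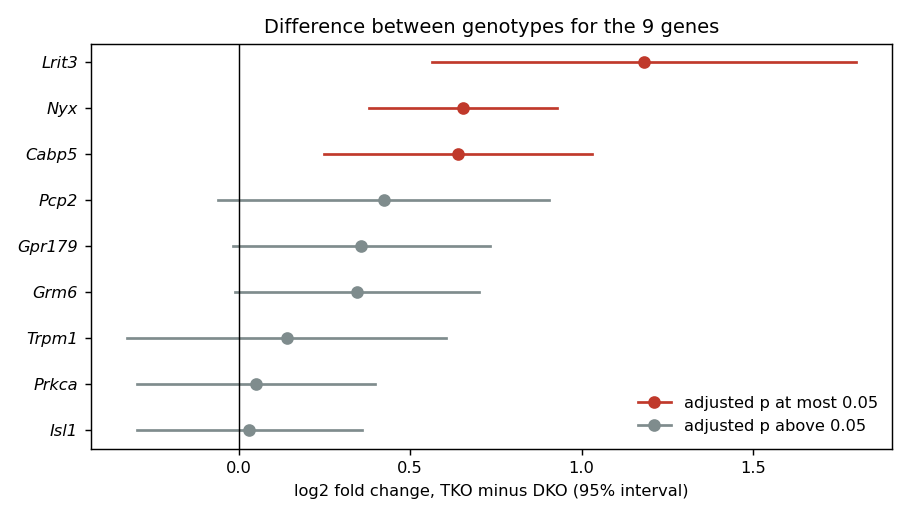
Log2 fold change of each of the 9 genes, TKO minus DKO, with its 95% interval from edgeR (horizontal axis). The intervals of Lrit3, Nyx and Cabp5 lie above 0, and those of the other 6 genes include 0.

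Leaving out single retinae changed how many genes passed. With 1 retina left out, 1 gene (Nyx) passed where TKO replicate 1 or DKO replicate 1 was missing, and 0 where TKO replicate 2 or DKO replicate 2 was. It was 3 without TKO replicate 3 and 3 without DKO replicate 3. The number of genes that rose among all tested moved as well. It was 1243 with the 6 retinae, and 541, 308 and 1617 with TKO replicate 1, 2 or 3 left out. Leaving out DKO replicate 1, 2 or 3 gave 312, 214 and 1483. Lrit3, Nyx and Cabp5 stayed above 0 in these 6 fits, as did Grm6, Gpr179 and Pcp2. TKO replicate 1 was the highest of the 6 retinae for 8 of the 9 genes, with Nyx as the exception, and TKO replicate 3 was the lowest TKO retina for 7 of them. DKO replicate 1 was the lowest DKO retina for 8 genes and DKO replicate 3 the highest for 8, with Prkca as the exception in both cases. Summed over the 9 genes, the level was 1673, 1179 and 1109 CPM (TKO) and 1025, 1086 and 1165 (DKO). TKO replicate 1 stood above the rest, and the other 5 retinae lay between 1025 and 1179.

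**Figure D3:**
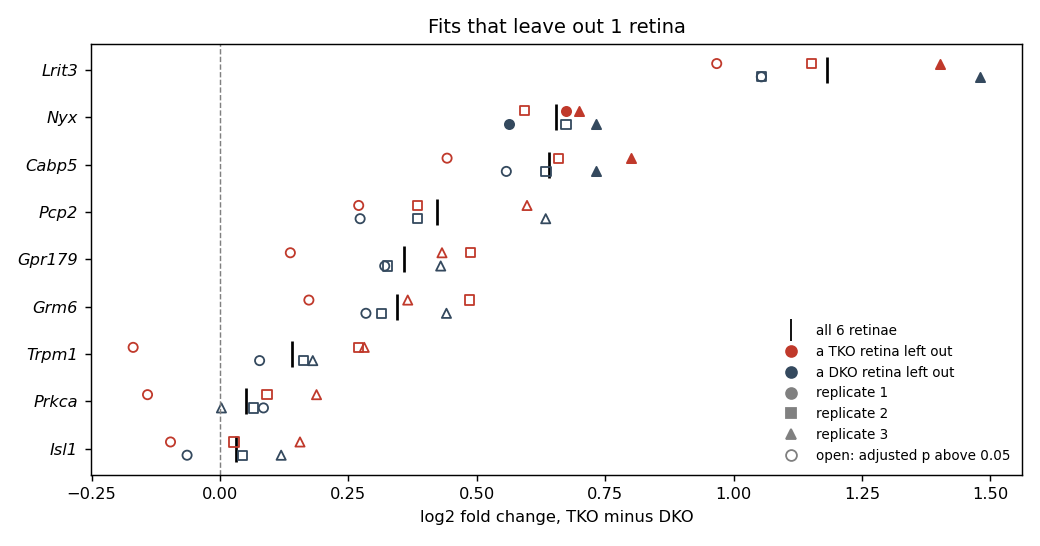
Log2 fold change of the 9 genes (horizontal axis, TKO minus DKO) with all 6 retinae (bars) and in the 6 fits that each leave out 1 retina (points, filled where the adjusted p was at most 0.05). Without TKO replicate 1 the values of Prkca, Trpm1 and Isl1 are below 0, and Lrit3 lies between 0.97 and 1.48.

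To compare levels between genes, CPM values were divided by the length of the exons of each gene in kb. In DKO retinae Prkca (31.6 ± 1.89), Cabp5 (30.8 ± 3.70), Grm6 (29.2 ± 3.31) and Pcp2 (28.3 ± 7.09) had the highest levels per kb (SD, n = 3 each), and neighbours in that order overlapped. Trpm1 (17.4 ± 1.34), Gpr179 (16.2 ± 1.37) and Isl1 (15.6 ± 2.01) followed, also with overlap among them. Lrit3 (8.56 ± 2.76) lay below Isl1 in every DKO retina, and Nyx (4.56 ± 0.551) lay below Lrit3. In TKO retinae Cabp5 came highest at 48.0 ± 11.7 and Nyx lowest at 7.19 ± 0.531. Lrit3 stood at 19.4 ± 5.87 there, overlapping Gpr179 (20.8 ± 5.19) and Trpm1 (19.1 ± 6.37). Single retinae ranged from 3.96 (Nyx, DKO replicate 1) to 60.3 CPM per kb (Cabp5, TKO replicate 1).

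**Figure D4:**
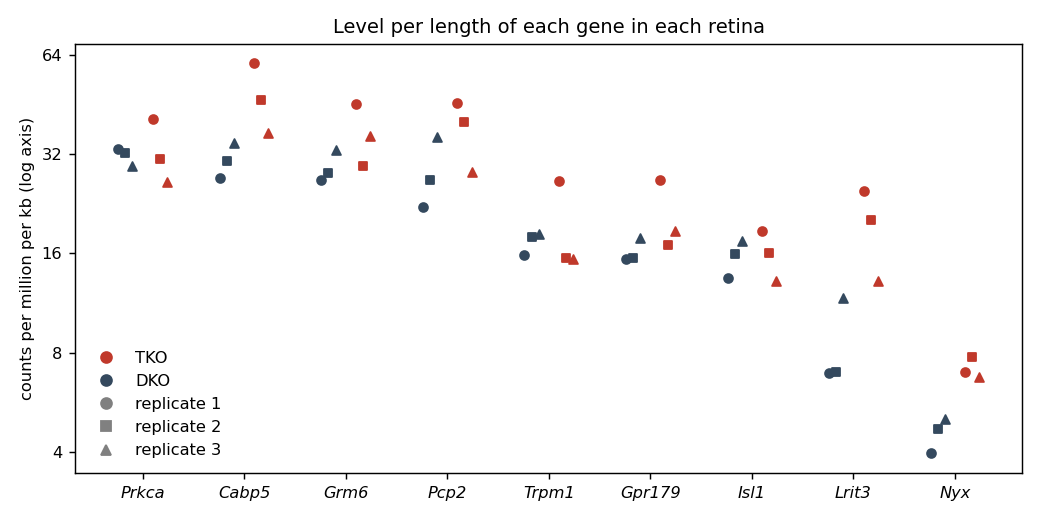
CPM per kb of exon (log axis) of the 9 genes in each DKO and TKO retina, ordered by the DKO mean. Lrit3 and Nyx are the lowest in DKO retinae, and Lrit3 reaches the range of Trpm1 and Gpr179 in TKO retinae.

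The genes were also set against Grm6 within each retina, which takes out the scaling of the library. Lrit3 had 0.276, 0.346 and 0.183 counts for each count of Grm6 in TKO and 0.132, 0.126 and 0.180 in DKO retinae. The 2 groups did not overlap, although TKO replicate 3 and DKO replicate 3 differed by little (exact permutation test of the log2 ratio, two-sided, p = 0.1, adjusted p = 0.48 over 8 ratios). This is the smallest p that 3 retinae against 3 allow, so no such ratio could reach 0.05. Gpr179 stayed between 0.909 and 1.03 counts per count of Grm6 in the 6 retinae. Nyx, at 0.147 to 0.252 in TKO and 0.142 to 0.160 in DKO retinae, and Cabp5, at 0.474 to 0.736 and 0.475 to 0.510, overlapped between the groups. By the distance between centred log2 normalized counts over the 6 retinae, Gpr179 was the member nearest to Grm6 (0.155), and Lrit3 was the farthest (1.29). Among 11672 other genes with a mean of at least 100 normalized counts, the nearest 5 were Ccdc176 (0.168), Cdk10 (0.199), Alkbh4 (0.204), Metap1d (0.206) and Rgs11 (0.229).

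Other genes of the ON cascade were read from a list of 9, which also held the Lrit3 relatives Lrit1 and Lrit2. In TKO retinae 3 of them rose (Gnb5, Lrit1 and Lrit2), 0 fell and 6 did not pass, with a median log2 fold change of 0.37. Both an unadjusted p of at most 0.05 and DESeq2 gave 4 higher and 0 lower. Gnao1, the Go alpha subunit that couples to mGluR6, had means of 6502 ± 234 (TKO) and 6512 ± 420 normalized counts (DKO, SD, n = 3 each), and its fitted log2 fold change was -0.0023. Gnb3, a beta subunit shared with cones, had 0.28 (adjusted p = 0.465 from edgeR), with a DKO range that took in all TKO values. Gnb5, the partner of RGS proteins in bipolar cells and in photoreceptors, rose by 1.13 on the log2 scale (adjusted p = 0.00980 from edgeR). Lrit2 and Lrit1, relatives of Lrit3 of which LRIT1 is known from photoreceptor terminals, rose by 1.45 and 0.91 (adjusted p = 0.0101 and 0.0304 from edgeR).

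The photoreceptor side of this synapse was read from a list of 6 genes, of which 4 rose and 1 fell, with a median of 0.96. Cacna1f and Cacna2d4 encode subunits of the calcium channel of photoreceptor terminals, and rose by 1.22 and 0.97 on the log2 scale (adjusted p = 0.0132 and 0.0202 from edgeR). Egflam encodes pikachurin, which photoreceptors secrete and which links dystroglycan on their terminals to GPR179 on the bipolar side, and rose by 1.22 (adjusted p = 0.0222 from edgeR). Elfn1, whose protein on rod terminals binds mGluR6 across the cleft, rose by 0.95 (adjusted p = 0.0235 from edgeR). Dag1, which encodes dystroglycan and was chosen after its values were seen because it was the gene that fell, stood at -0.32 on the log2 scale (adjusted p = 0.0492 from edgeR). In the 4 genes that rose, all TKO retinae were above all DKO retinae, which held for 18.0% of all genes. The test had already picked these 4 as higher, so this is not separate support.

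Of 12 transcription factors of bipolar cells, 1 rose and 0 fell, with a median of 0.25. An unadjusted p of at most 0.05 was reached by 5 higher and 1 lower of these factors, and DESeq2 gave 4 higher and 1 lower. Otx2, which photoreceptors also use, rose from 1396 ± 225 to 2686 ± 554 normalized counts (SD, n = 3 each), by 0.94 on the log2 scale (adjusted p = 0.0106 from edgeR). Neurod4, a neurogenic factor, had 0.025. Of 8 rod bipolar markers, 1 rose (Gabrr1, a GABA receptor subunit, 0.66, adjusted p = 0.0396 from edgeR), with a median of 0.35, and Slc1a7, a glutamate transporter, had 0.80 (adjusted p = 0.0542 from edgeR). DESeq2 gave 3 higher rod bipolar markers, and 4 were higher at an unadjusted p of at most 0.05, with 0 lower in both. Of 6 ON cone bipolar markers, 1 rose (Scgn, which encodes secretagogin, 0.52, adjusted p = 0.0284 from edgeR), with a median of 0.46, and Kcng4, a potassium channel subunit, had 0.15. For that list DESeq2 also gave 1 higher and 0 lower, and 4 were higher at an unadjusted p of at most 0.05. Of 8 OFF cone bipolar markers, 1 rose (Grik1, a kainate receptor subunit, 0.41, adjusted p = 0.0277 from edgeR) and 1 fell (Prkar2b, -0.48, adjusted p = 0.0306 from edgeR), with a median of -0.054. An unadjusted p of at most 0.05 was reached by 1 higher and 3 lower of them, and DESeq2 gave 1 higher and 2 lower. Defining genes of ON and rod bipolar cells were present in all 6 retinae, since Grm6 and Prkca each had at least 1830 normalized counts in every retina.

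**Figure D5:**
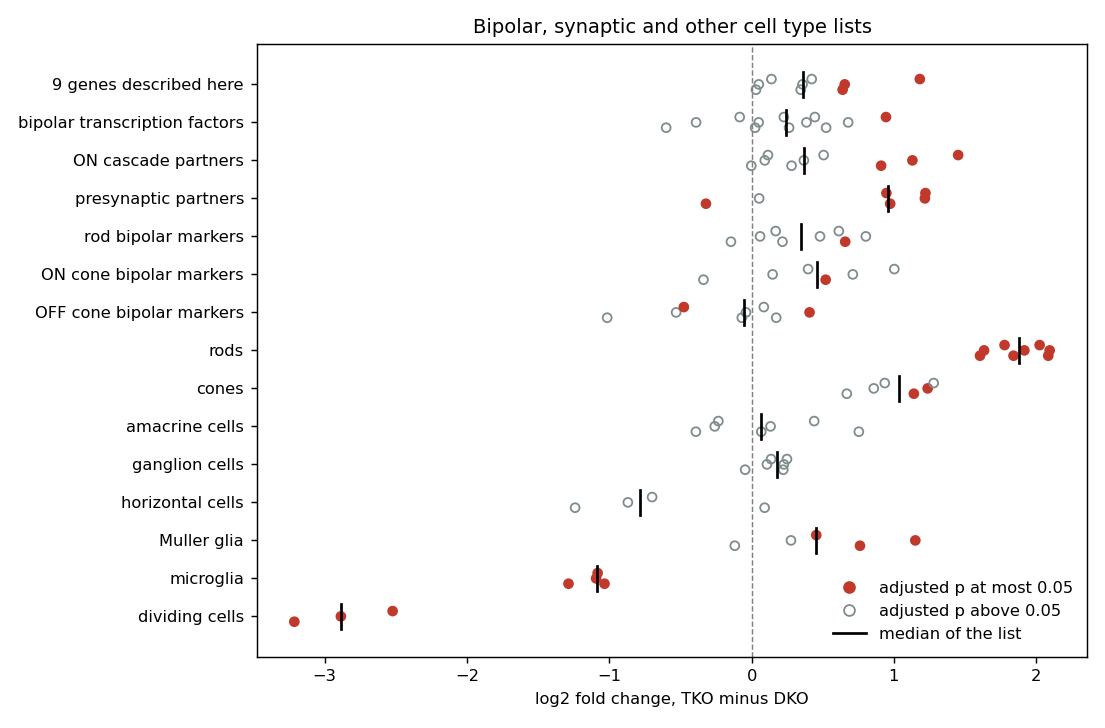
Log2 fold change (horizontal axis, TKO minus DKO) of the 9 genes and of the genes on each list, filled where the adjusted p from edgeR was at most 0.05, with the median of each list as a bar (lens and RPE are not drawn). The 9 genes have a median of 0.36, the rod list 1.88 and the dividing cell list -2.89.

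Markers of other cells moved in the same libraries. Rods had a median log2 fold change of 1.88 with 8 of 8 genes higher. Cones had a median of 1.04 with 2 of 6 higher, led in level by Opn1sw (1.24, adjusted p = 0.0467 from edgeR). Muller glia had 3 of 5 higher and a median of 0.45, and Glul rose by 1.15 (adjusted p = 0.00548 from edgeR). Microglia had 4 of 4 lower with a median of -1.09, and Csf1r had -1.03. Dividing cell markers had 3 of 3 lower with a median of -2.89, and Top2a had -3.21. For amacrine, ganglion and horizontal cells none of the listed genes passed in edgeR. At an unadjusted p of at most 0.05 there were 1 higher and 1 lower amacrine gene, 1 higher ganglion cell gene and 2 lower horizontal cell genes. DESeq2 gave 1 higher and 1 lower amacrine gene, 0 ganglion cell genes and 1 lower horizontal cell gene. Gad1, Nefl and Calb1 had 0.13, 0.22 and 0.092. Calb1 was the only 1 of the 4 horizontal cell genes above 0, and that list had a median of -0.78. In sum the cone list ran from 465 to 1254 CPM in TKO and from 323 to 526 in DKO retinae, and the Muller list from 3403 to 4103 and from 2028 to 2253. The microglia sum ran from 59.9 to 105 and from 135 to 202, and the dividing cell sum from 25.5 to 113 and from 283 to 636. Lens markers (3 of 5 higher) were high in TKO replicate 2, at 230 CPM in sum against 35.1 and 43.3 in the other TKO and 5.54 to 6.48 in DKO retinae, and Cryaa had 5.98. RPE markers (1 of 3 higher) summed to 36.0 to 187 in TKO and 6.25 to 65.0 in DKO retinae, and Ttr had 1.24 (adjusted p = 0.277 from edgeR). No gene of these lists was at 0 in all 6 retinae. The part of the other cells in the differences of Lrit3, Nyx and Cabp5 was not tested.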

How the data were processed

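RNA-seq counts of 3 TKO and 3 DKO retinae were used, with groups and replicate numbers from the sample labels. Per the methods of the study, the authors used STAR on GRCm38 for alignment and HTSeq for gene counts, whereas the submitters' processing notes name TopHat2, featureCounts and DESeq2. The deposited values are raw counts. The study's methods name a stranded library kit, but the strand setting of the counting is not given in the sources used here. Per the study's methods, reads with a few alignments were allowed in the alignment. Whether such reads were counted is not given in the sources used here, so genes with close copies may be less certain.

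Genes with a sum under 10 were removed. Counts were tested across all genes with edgeR 4.0.16 in R 4.3.3 (TMM, quasi-likelihood F test, Benjamini-Hochberg adjustment over 16904 genes), with DESeq2 1.42.0 as an alternative. Intervals use the standard error, taken from the size of the log2 fold change and F, and the degrees of freedom of that test. On simulated data for this comparison with 16766 genes, 84 of 100 genes changed by 1 on the log2 scale were recovered, 100 of 100 changed by 2, and 1 of 16566 unchanged genes was called. The simulation used 1 common dispersion for all genes, drew the genes independently and changed only genes above a count floor. These shares need not hold for the real libraries.

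Coordinates and exon lengths come from GENCODE M21 (GRCm38) and promoters from RefSeq (GRCm38.p6). In each list for bipolar cells or their synapse, genes were named when they were among the 4 smallest p-values that passed or the 2 largest mean counts, and in other lists by the largest mean count. Some genes that this rule names are not reported here, and the rod sum leaves out the most abundant gene of its list. The members and lists were chosen with earlier results of these data known. Ratios to Grm6 were added after the values had been seen. The alternatives were 4 other scalings, 2 other filters, robust dispersion, DESeq2, the replicate number as a block, adjusted p alone and each retina left out. Precision is limited by 3 retinae per genotype.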

Additional observations from a re-analysis of the deposited data

How the results depend on the processing

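The 3 genes that rose and the 1 gene called by all criteria were the same in number with DESeq2, RLE size factors, upper-quartile scaling, TMM without rod and cone genes, filterByExpr, no filter and robust dispersion. With total counts alone, 2 genes passed. With an adjusted p alone as the criterion, 3 genes were called in place of 1. When single retinae were left out, 0 to 3 genes passed and 0 to 1 were called. Under the replicate block (replicate number as a term), 0 genes passed and 0 were called, where 24 of all 16904 genes passed as higher and 82 as lower, and Lrit3, Nyx and Cabp5 had log2 fold changes of 1.18, 0.66 and 0.62 (adjusted p = 0.0940, 0.0577 and 0.119 from edgeR). Retinae with the same number did not deviate together (correlations of 0.068, -0.045 and -0.18 over 14996 genes). With 3 retinae per genotype these correlations cannot exclude a pairing, and the block leaves fewer degrees of freedom.

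Of 135 log2 fold changes of the 9 genes under the alternatives, 113 kept their direction and side of the threshold, 14 kept their direction but no longer passed, and 8 changed sign. With total counts alone Prkca had -0.12, Trpm1 -0.027 and Isl1 -0.13, and Isl1 had -0.0030 with upper-quartile scaling. When 1 retina was left out, Prkca ran from -0.14 to 0.19, Trpm1 from -0.17 to 0.28 and Isl1 from -0.097 to 0.16. None of these 3 genes passed the test in any fit. Over the 15 alternatives the adjusted p ran from 0.00010 to 0.0940 for Lrit3, from 0.00024 to 0.0590 for Nyx and from 0.0039 to 0.126 for Cabp5 (edgeR or DESeq2).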
